A study of Homo sapiens with 2 samples.

Results

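The miR-106b/25 cluster consists of the hairpins hsa-mir-106b, hsa-mir-93 and hsa-mir-25 (below without the species prefix), which lie one after another in an intron of MCM7, the gene of a subunit of the replicative helicase. The members were taken by name: 3 of 1038 miRNA precursors with a count, and 4 of 502547 stacks of overlapping reads whose annotation names a member on the same strand. They were measured in small RNA bound to Argonaute in HEK293 T-Rex cells, a human embryonic kidney line that carries the tetracycline repressor. One group expressed FLAG-tagged AGO2 and the other FLAG-tagged AGO3, both on the same parental line and both pulled down through the tag, with 1 library per group. The tagged protein is a transgene whose promoter and level no source used here gives. The 3′ adapter also differs between the libraries, so adapter and protein cannot be told apart. A single library per group allows no test, so p-values are absent. Intervals are at the 95% level by the exact Clopper-Pearson method, and they describe counting error alone.

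A primary transcript with several hairpins is cut by Drosha into separate precursors, which Dicer then cuts into duplexes of a 5p and a 3p strand. An Argonaute protein keeps one strand, and the seed near its 5′ end pairs with target mRNAs. The miR-106b/25 cluster is a paralogue of the miR-17/92 cluster on chromosome 13 and of the cluster on chromosome X that runs from mir-106a to mir-363. These miRNAs are known for promoting the cell cycle and survival, among others through the cell cycle inhibitor p21 and the cell death factor BIM.

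The strands below show how the 3 hairpins fall into 2 seed groups. Bases 2 to 8 of each strand, the seed, are in capitals. The sequences are those of RefSeq (GRCh38.p14, chromosome 7, minus strand), in which all 3 members were matched.
hsa-miR-106b-5p: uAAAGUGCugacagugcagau
hsa-miR-93-5p: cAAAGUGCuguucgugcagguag
hsa-miR-25-3p: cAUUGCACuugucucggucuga
hsa-miR-106b-3p: cCGCACUGuggguacuugcugc
hsa-miR-93-3p: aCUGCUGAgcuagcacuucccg
hsa-miR-25-5p: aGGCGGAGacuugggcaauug

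The 5p strands of mir-106b and mir-93 share the seed AAAGUGC, which 8 of 2370 mature human miRNAs in the table carry (0.338%). The 3p strand of mir-25 has the seed AUUGCAC, found in 6 of them (0.253%). The seeds of the remaining 3 strands of the cluster were each found in 1 miRNA of the table, that strand itself. The nearest relatives of each group in the paralogous clusters are shown for comparison, again with the seed in capitals.
hsa-miR-17-5p: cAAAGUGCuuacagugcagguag
hsa-miR-20a-5p: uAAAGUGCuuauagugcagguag
hsa-miR-20b-5p: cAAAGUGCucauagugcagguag
hsa-miR-106a-5p: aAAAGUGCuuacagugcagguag
hsa-miR-92a-3p: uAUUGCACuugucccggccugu
hsa-miR-363-3p: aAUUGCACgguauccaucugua

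Compared base by base from the 5′ end, miR-106b-5p differed from miR-20a-5p at 3 of 21 positions (G10U, C12U and A20G, with the base of miR-106b-5p first). It differed from miR-93-5p, its neighbour in MCM7, at 5 of 21 positions. The strand of mir-93 was closest to miR-20b-5p, with 3 differences over 23 positions (G10C, U11A and C13A). Full-length reads therefore differ between these relatives. No source used here says how reads that match several precursors were counted.

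The hairpins of mir-106b and mir-25, with both mature strands in capitals, show on which side each seed lies.
hsa-mir-106b: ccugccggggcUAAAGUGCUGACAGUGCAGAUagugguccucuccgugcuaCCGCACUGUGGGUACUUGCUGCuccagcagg
hsa-mir-25: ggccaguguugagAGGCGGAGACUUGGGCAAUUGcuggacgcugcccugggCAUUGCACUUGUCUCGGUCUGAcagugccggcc
The hairpin of mir-106b is 82 bases long and carries its AAAGUGC seed on the 5′ side. That of mir-25 is 84 bases long and carries the AUUGCAC seed on the 3′ side.

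Depth was 6674064 reads for AGO2, with 52.2% of them on miRNA precursors, and 4667236 reads for AGO3, with 65.5%. Shares below are of the 3485257 and 3055417 precursor counts unless another base is named, each count covers both strands of a hairpin, and the mature strands are of near-equal length (21 to 23 bases). With the floor set at 3 counts, a count of 0 would allow a share of up to 8.61e-05% in AGO2 and 9.82e-05% in AGO3, far below every member. A list of 18 precursors that mark other cell types (liver, blood, muscle, neuron, pluripotent cells and epithelium) had 2615 AGO2 counts and 1204 AGO3 counts in total. Of these, mir-223, mir-206 and mir-302d were at 0 in both libraries. The neuronal copies mir-124-1, mir-124-2 and mir-124-3 had most of both totals, with 603, 588 and 1116 counts in AGO2. In AGO3 they had 319, 325 and 199. The blood marker mir-142 followed with 197 in AGO2 and 184 in AGO3, and none of the rest was above 30 in AGO2 or 46 in AGO3. The part of these marker precursors in the values below was not tested.

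The leading member in both libraries was mir-106b, whose 5p strand represses p21. It had 462397 counts in AGO2 and 299845 in AGO3, which are shares of 13.3% (13.2 to 13.3) and 9.81% (9.78 to 9.85). No other precursor had more counts in either library. Its count was 2.89 times that of the next precursor in AGO2, mir-27b, and 2.09 times that of the next in AGO3, mir-126.

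The second hairpin, mir-93, shares the seed and is known for many of the same targets. It had 36053 counts in AGO2 and 27125 in AGO3, or 1.03% (1.02 to 1.05) and 0.888% (0.877 to 0.898). It stood at rank 23 and rank 30. The precursors just above and below it were mir-92a-2 and mir-378a in AGO2 and mir-652 and mir-590 in AGO3.

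The third hairpin, mir-25, is known as a repressor of BIM through the seed it shares with miR-92a. It had 20428 counts in AGO2 and 13117 in AGO3, or 0.586% (0.578 to 0.594) and 0.429% (0.422 to 0.437), at ranks 44 and 54. The order mir-106b, mir-93, mir-25 was therefore the same in both libraries, and the intervals of neighbours in that order did not overlap. This order is also the order of the hairpins along the transcript.

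**Figure D1:**
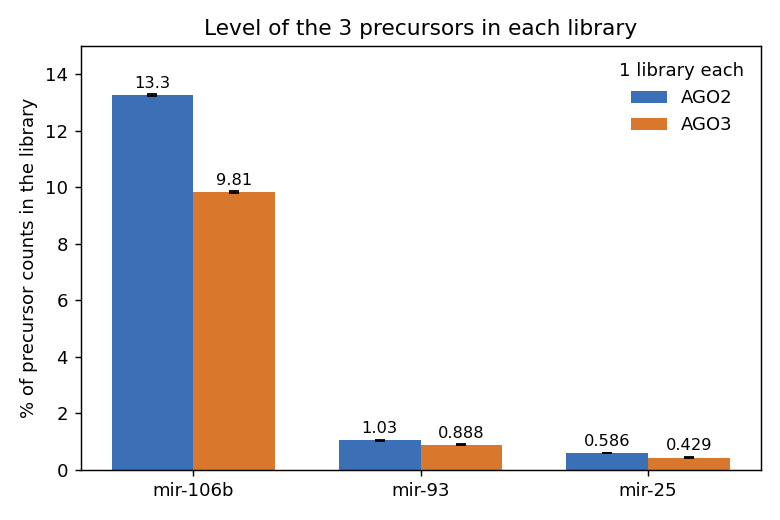
Share of each member in the precursor counts of the AGO2 (blue) and the AGO3 (orange) library, 1 library each, in percent. Bars are the measured shares and error bars are Clopper-Pearson intervals for counting error. The bar of mir-106b stands at 13.3% and 9.81%, whereas no other bar is above 1.03%. Each AGO3 bar is lower than its AGO2 bar, but per read of the whole library the order is turned for mir-93.

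The comparison of AGO3 with AGO2 asked whether these miRNAs took different shares of the precursor counts in the 2 libraries. Shares do not give the amount held by each protein. The log2 ratio of shares, AGO3 over AGO2, was −0.44 (−0.44 to −0.43) for mir-106b, −0.22 (−0.24 to −0.20) for mir-93 and −0.45 (−0.48 to −0.42) for mir-25. The AGO3 shares were thus 74.0%, 85.8% and 73.2% of those in AGO2. The direction held for mir-106b and mir-25 under each of 5 scalings, but mir-93 turned to 0.11 when shares were taken of all reads of a library. That scaling raises every ratio by 0.33 and the TMM scaling of edgeR lowers every ratio by 0.16, so directions are relative to the scaling. On the scale of all reads mir-106b made up 6.93% of AGO2 and 6.42% of AGO3, mir-93 0.54% and 0.581%, and mir-25 0.306% and 0.281%.

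None of the 3 members was at least 2-fold apart, the size used here to call a difference, whereas 24.6% of the 411 precursors with at least 100 counts were (15.8% higher and 8.76% lower in AGO3). With 3 members, none called is not a departure from that share. Over those 411 the median log2 ratio was 0.08 and the SD was 1.02, with 219 higher and 192 lower in AGO3. The median of the members was −0.44. Lower ratios than that of mir-25 were seen in 110 of them, than that of mir-106b in 115 and than that of mir-93 in 160. Among the 100 precursors with at least 10000 counts the median was −0.04, 22.0% were at least 2-fold apart, and 52 were lower in AGO3.

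The members added up to 518878 counts in AGO2 and 340087 in AGO3, or 14.9% (14.85 to 14.93) and 11.1% (11.10 to 11.17) of the libraries. The log2 ratio of the sum was −0.42 (−0.43 to −0.41), and −0.093 per read of the whole library. Most of this sum is mir-106b. The sum of mir-93 and mir-25 took 1.62% of AGO2 and 1.32% of AGO3, with a log2 ratio of −0.30 (−0.32 to −0.28) that turned to 0.03 per read of the whole library.

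Differences between the members do not depend on the scaling. The log2 ratios of mir-106b and mir-25 differed by 0.01, and their counting intervals overlap. The ratio of mir-93 was 0.21 above that of mir-106b and 0.23 above that of mir-25, beyond counting error but with no replicate to set it against. Of the counts of the cluster, mir-93 therefore made up 6.95% (6.88 to 7.02) in AGO2 and 7.98% (7.89 to 8.07) in AGO3. The part of mir-106b was 89.1% (89.0 to 89.2) in AGO2 and 88.2% (88.1 to 88.3) in AGO3. That of mir-25 was 3.94% (3.88 to 3.99) and 3.86% (3.79 to 3.92), which is within counting error. For each count of mir-25 there were 22.6 of mir-106b in AGO2 and 22.9 in AGO3.

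Over these 2 libraries, the precursors with at least 10000 counts whose log2 ratio was nearest to that of mir-106b were mir-26b (−0.43), mir-218-1 (−0.44) and mir-21 (−0.43). Nearest to mir-25 were mir-18a (−0.45), mir-218-1 and mir-106b. Nearest to mir-93 were mir-1307 (−0.23), let-7g (−0.26) and mir-374b (−0.27). With a pair of libraries such likeness is a single number per precursor.

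The paralogous clusters showed a wider spread of ratios. The 3 hairpins of MCM7 lay within 0.23 of each other on the log2 scale. The 6 of the chromosome 13 cluster spread over 2.72, from −1.96 for mir-19b-1 to 0.76 for mir-17, and the 6 of the chromosome X cluster over 2.77, from −1.49 for mir-19b-2 to 1.28 for mir-363. A set of 3 has less room to spread than a set of 6, and no test of the spread was made. The miR-106b/25 cluster has no hairpin of the miR-19 family. In each paralogue the lowest ratio was that of a mir-19b copy. The remaining hairpins ran from −0.57 (mir-19a) to 0.76 (mir-17) on chromosome 13. On chromosome X they ran from −0.03 (mir-92a-2) to 1.28 (mir-363). Counts may be split between the copies mir-19b-1 and mir-19b-2, so their low ratios may not be independent. At least 2-fold apart were 0 of 3 hairpins of the MCM7 cluster, 1 of 6 on chromosome 13 and 2 of 6 on chromosome X, beside 24.6% of all precursors compared. Per read of the whole library these were 0, 2 and 4, beside 29.9%. In counts, the MCM7 cluster exceeded both paralogues in each library: the chromosome 13 cluster took 11.0% of AGO2 and 9.77% of AGO3, and the chromosome X cluster 1.63% and 1.56%. Of the 56712 AGO2 counts of the chromosome X cluster, mir-92a-2 had 37370 and mir-19b-2 had 9359. In AGO3 they had 32079 and 2912 of 47580. Counts of both may be shared with their copies on chromosome 13, and their pooled stacks held 198 and 450 reads. In the pooled stacks the order of the clusters was another, with 15735778 reads over the chromosome 13 cluster, 6615331 over the MCM7 cluster and 169760 over the chromosome X cluster.

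**Figure D2:**
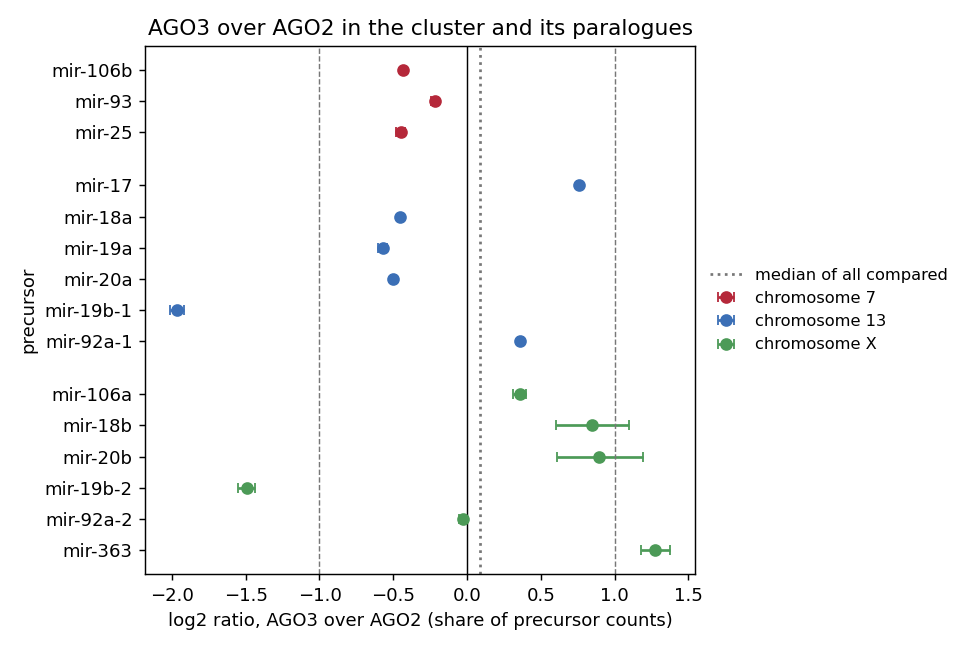
Log2 ratio of shares, AGO3 over AGO2, for each hairpin of the MCM7 cluster on chromosome 7 (red) and its paralogues on chromosomes 13 (blue) and X (green). Bars are intervals for counting error, dashed lines mark 2-fold, the solid line marks equal shares and the dotted line is the median of all 411 precursors compared (0.08). The MCM7 hairpins lie between −0.45 and −0.22, and mir-93 moves to 0.11 when scaled to all reads, whereas the paralogues reach from −1.96 to 1.28.

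Within the AAAGUGC seed group, mir-106b had the most counts in both libraries, whereas in the pooled stacks mir-17 (3640701 reads) and mir-20a (3294736 reads) stood above it (2801758 reads). The group of mir-17, mir-20a, mir-20b, mir-106a, mir-106b and mir-93 took 18.6% of AGO2 and 15.3% of AGO3. In both seed groups the counts are per hairpin and do not single out the strand with the seed. Of these counts mir-106b held 71.2% (71.1 to 71.3) in AGO2 and 64.0% (63.8 to 64.1) in AGO3. The part of mir-93 was 5.55% (5.50 to 5.61) and 5.79% (5.72 to 5.86). The table also gives this seed to miR-519d-3p and miR-526b-3p. Their hairpins had 0 counts for mir-519d in both libraries, and 2 and 5 for mir-526b.

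The relatives of mir-106b did not share its ratio. The hairpin mir-20a, 3 positions away in its 5p strand, was near it at −0.50, whereas mir-17, also 3 positions away, was at 0.76. These ratios are of counts that do not separate the strands of a hairpin. On chromosome X, mir-106a was at 0.36 and mir-20b, from 160 and 261 counts, at 0.89. In total, 3 of the 6 were higher in AGO3 and 3 lower, with a median of 0.07 that turned to −0.093 with TMM and −0.017 with median-of-ratios scaling, and 4 were higher per read of the whole library. Without mir-106b the group took 5.36% of AGO2 and 5.52% of AGO3. For this remainder the log2 ratio was 0.04 (0.03 to 0.05), and it rose to 0.37 per read of the whole library. It turned to −0.12 with TMM, −0.04 with median-of-ratios scaling and −0.02 when scaled to the counts of other precursors. With mir-106b the group stood at −0.28, or at 0.05 per read of the whole library.

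In the AUUGCAC group, mir-25 was a smaller part. The group of mir-25, both copies of mir-92a, mir-92b, mir-363, mir-32 and mir-367 took 4.78% of AGO2 and 4.17% of AGO3, of which mir-25 held 12.3% (12.1 to 12.4) and 10.3% (10.1 to 10.5). The log2 ratio of the group sum was −0.20, and it turned to 0.13 per read of the whole library. The ratio of mir-25, −0.45, lay between those of mir-32 at −1.10 and mir-92b at −0.16. The copies mir-92a-1 and mir-92a-2, which give the same 3p strand and whose counts may be split between them, were at 0.36 and −0.03, and mir-363 was at 1.28. With 3 and 1 counts, mir-367 was too low for a ratio. Of the other 6, mir-25 included, 2 were higher in AGO3 and 4 lower, with a median of −0.09, and per read of the whole library 4 were higher with a median of 0.23.

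The read stacks show where along MCM7 the small RNAs come from. They pool libraries that no source used here names, so they say nothing of AGO2 against AGO3. With 68649476 reads the list holds more reads than both libraries above. The stack over mir-106b lies at chr7:99691597-99691709 (hg19, minus strand) with 2801758 reads, and that over mir-93 at chr7:99691374-99691484 with 2614203 reads. For mir-25 there were 2 stacks, at chr7:99691229-99691303 with 24200 reads and at chr7:99691174-99691220 with 1175170 reads. The 4 stacks lie within 536 bases, and the annotation places each in intron 13 of the MCM7 transcript NM_005916.

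**Figure D3:**
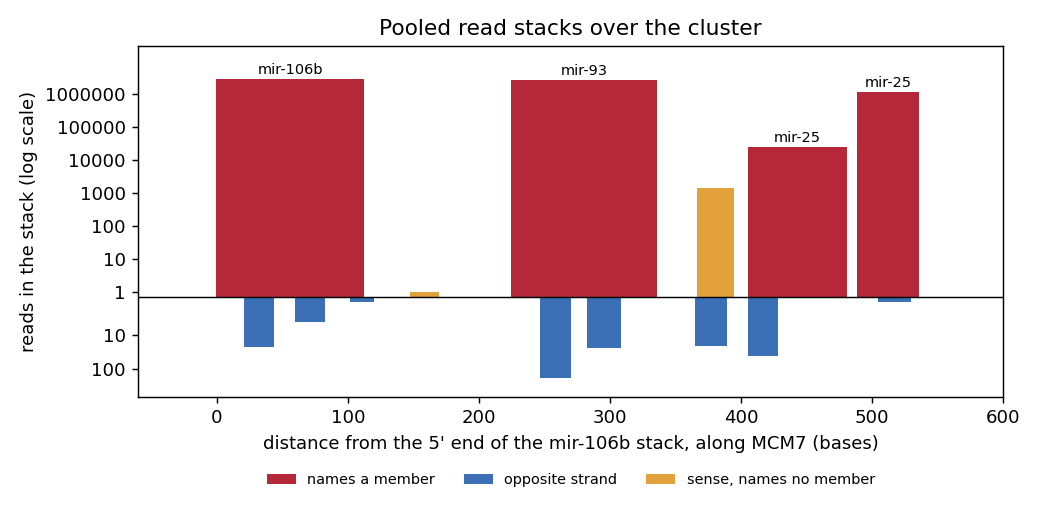
Reads per stack on a log axis against the distance in bases from the 5′ end of the mir-106b stack along MCM7. Red stacks name a member, yellow stacks lie on the same strand and name none, and blue stacks, drawn downwards, lie on the opposite strand. The members stand at 24200 to 2801758 reads, the highest other stack at 1388 and the highest opposite stack at 195.

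The 2 stacks of mir-25 split its pooled reads between the sides of the hairpin. The stack on the 3′ side, where the hairpin carries miR-25-3p, held 98.0% of the mir-25 reads. The 5′ side held 2.02% (1.99 to 2.04). These stacks are 47 and 75 bases long, more than the 22 and 21 bases of the mature strands. The values are therefore shares of sides and not of strands. Among the relatives whose hairpins were also split into 2 stacks, mir-92b had 97.1% on the 3′ side, mir-106a 99.1% on the 5′ side and mir-20b 96.6% on the 5′ side. In each of these 4 hairpins most reads thus lay on the side that carries the seed of its group. For mir-106b and mir-93 the sides are merged in 1 stack, so their shares could not be read.

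The stacks reach beyond the hairpins. That of mir-106b spans 113 bases, 31 more than its hairpin in RefSeq, and the stacks of mir-25 together span 130 bases, 46 more. Over 82 precursor stacks with at least 100000 reads the median length was 88 bases, and 77 were shorter than that of mir-106b and 74 shorter than that of mir-93 (111 bases). The entropy field of the stacks was 2.096 for mir-106b, 1.782 for mir-93 and 1.094 for the larger mir-25 stack, against a median of 1.60. It was 0 in stacks of 1 read over MCM7, which are covered evenly. A higher value is therefore not read here as a more even spread of reads. The field that counts edits gave 0.163 per read for mir-106b, 0.159 for mir-93 and 0.171 for mir-25, against a median of 0.159 and quartiles of 0.151 and 0.165.

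Little else of MCM7 appeared. On the sense strand the gene had 60 further stacks with 1613 reads in all, so that the members made up 99.98% of its sense reads. Of the 1613 reads, 1388 were in a single stack of 28 bases at chr7:99691315-99691342, between mir-93 and mir-25. It lies 31 bases from the mir-93 stack and 11 bases from the 5′ stack of mir-25, and its annotation names no precursor. It was singled out after its values were seen. Outside intron 13, 58 stacks held 224 reads, and the highest of these had 49.

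On the opposite strand, 21 stacks with 338 reads were found over MCM7, and 8 of them with 310 reads lay within the cluster. The annotation names mir-93 opposite 219 of these reads, 0.00838% of the reads of mir-93 itself. It names mir-106b opposite 27 and mir-25 opposite 1.

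The balance among the members differed between the tables. In the pooled stacks mir-106b held 42.4% (42.3 to 42.4) of the reads of the cluster, mir-93 39.5% (39.48 to 39.55) and mir-25 18.1% (18.10 to 18.16), against 89.1%, 6.95% and 3.94% of the AGO2 counts. The order of the members was the same. For each read of mir-93 there were 1.07 of mir-106b in the stacks, against 12.8 in AGO2 and 11.1 in AGO3. Among 1129 precursors named in a stack, mir-106b ranked 4, mir-93 ranked 5 and mir-25 ranked 10. In this ranking the reads of a shared stack count for each precursor it names. The stack shared by mir-92a-1 and mir-19b-1 (2462278 reads) thus puts both at rank 6, above mir-25.

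**Figure D4:**
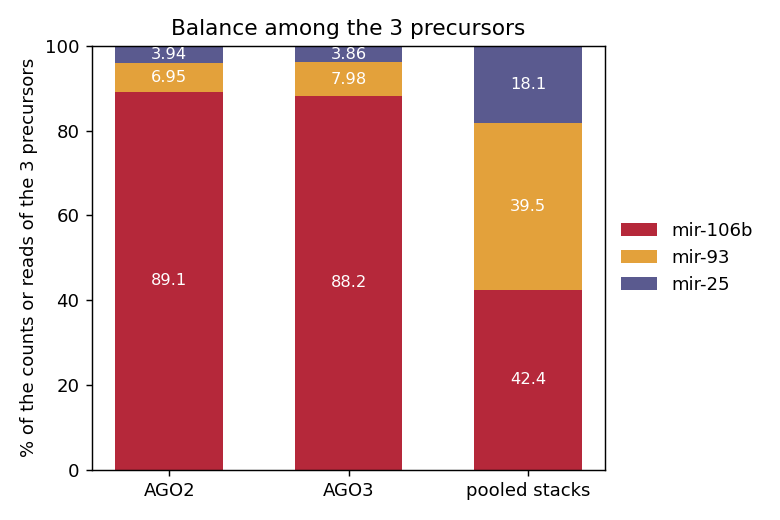
Percent of the counts (AGO2, AGO3) or reads (pooled stacks) of the 3 members that fell on mir-106b (red), mir-93 (yellow) and mir-25 (violet). The libraries differ little, with mir-106b at 89.1% and 88.2%, whereas in the pooled stacks it is at 42.4% and mir-93 at 39.5%.

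Set against the summed counts of both libraries, mir-106b had 3.68 stack reads per count, mir-93 had 41.4 and mir-25 had 35.8. Over the 326 precursors with at least 100 counts that share no stack, the median was 6.32 with quartiles of 2.17 and 16.4. The value of mir-106b exceeded 36.8% of these precursors, that of mir-93 92.6% and that of mir-25 89.9%. In the chromosome 13 cluster, the hairpins with a stack of their own ranged from 8.06 stack reads per count for mir-18a to 118.2 for mir-19a, with mir-20a at 22.3 and mir-17 at 28.8. The copy mir-92a-2 had 0.00285, with 198 stack reads against 69449 counts. What sets the balance in either table was not tested.

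**Figure D5:**
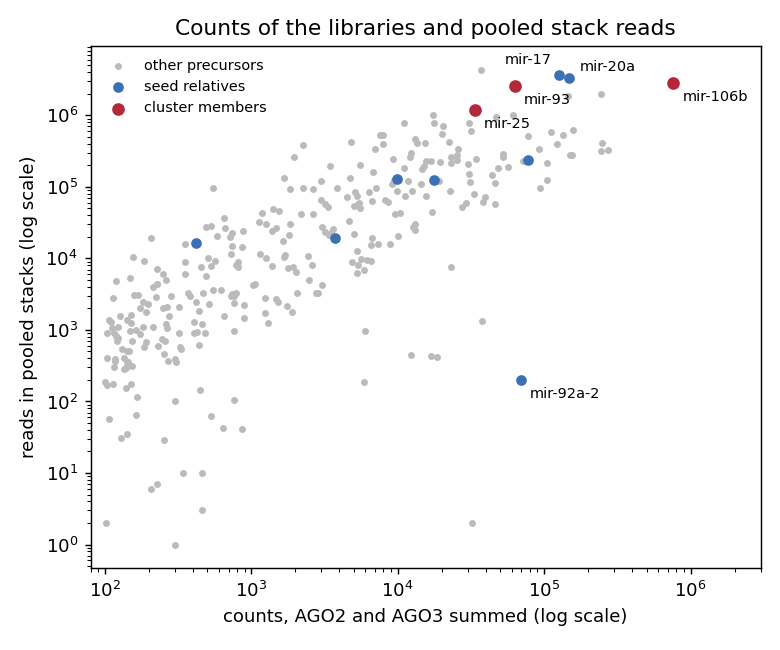
Reads in the pooled stacks against the counts of both libraries summed, on log axes, for 326 precursors that share no stack. Members of the cluster are red and their seed relatives blue. Stack reads of the members run from 1199370 to 2801758, up to 2.34 times apart, while the counts of mir-106b (762242) lie far to the right of those of mir-93 (63178) and mir-25 (33545).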

How the data were processed

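Small RNA from FLAG pull-downs of AGO2 and AGO3 in HEK293 T-Rex cells was sequenced. The authors deposited raw counts per miRNA precursor and library, which per the file headers sum to the mapped reads. A second deposited table lists stacks of overlapping reads over pooled libraries with the count of reads, further fields (edits, entropy) and a score per stack; the deposited score was not used. Bowtie2 2.1.0 and hg19 appear in the submitters' processing notes with no role. The sources used here do not give the miRBase release or the use of strand in counting.

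Shares of the precursor counts were compared as log2 ratios (AGO3 over AGO2) after adding a pseudocount of 0.5, scaled to library size, among precursors with at least 100 counts. Reads carry no molecular identifiers that were counted, so intervals and floors (3 counts) hold for counting error alone. The computation was tested on simulated counts. Named precursors were the members, their seed relatives, the paralogous clusters, the 3 nearest in ratio among precursors with at least 10000 counts, and neighbours in rank. Members and lists were chosen with earlier results of these data known. Alternatives were TMM (edgeR 4.0.16), median of ratios over precursors with at least 100 counts, scaling to all reads or to other precursors, other minimums and another pseudocount. All 18 named precursors had mature sequences and 16 had hairpins in RefSeq. Tools were R 4.3.3, Python 3.11.15, scipy 1.17.1 with numpy 2.4.6, and pandas 2.3.3, with matplotlib 3.10.9 for figures.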

Additional observations from a re-analysis of the deposited data

How the results depend on the processing

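Of 42 alternative values, 16 stayed within counting error, the spread of their list or 1.5 times the main count, and 26 moved. No paired analysis was possible because each group has 1 library. For mir-106b, mir-93, mir-25 and their sum, the log2 ratio was −0.60, −0.38, −0.61 and −0.58 with TMM, −0.52, −0.31, −0.53 and −0.50 with median-of-ratios scaling, −0.50, −0.28, −0.51 and −0.48 when scaled to the counts of other precursors, and −0.11, 0.11, −0.12 and −0.093 when scaled to all reads. Each scaling shifts every precursor alike, so these moves follow from its construction. A pseudocount of 1 left the ratios within counting error. Shares within the cluster from the pooled stacks were 42.4%, 39.5% and 18.1% for mir-106b, mir-93 and mir-25, set against either library; the cause was not tested. Precursors at least 2-fold apart numbered 184 of 638 (28.8%) with a minimum of 20 counts, 54 of 221 (24.4%) with 1000 and 436 of 1038 (42.0%) with none; the cause of the rise in share was not tested. Of those called, 64.4% were higher in AGO3, against 51.9% with TMM and 87.0% when scaled to all reads. The larger stack of mir-25 alone held 1.71% of all stack reads, against 1.75% for both. Each ratio rests on 1 library per protein, and depth covers counting error alone.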
